A study of Mus musculus with 6 samples.

Results

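The collagen genes are described here in the mouse heart at embryonic day 16.5, taken whole from 3 wild-type (WT) and 3 FOG-2 R3K5A embryo samples, with 1 Affymetrix array each. Of 32 collagen genes listed for this purpose, 32 had a probe set that the platform annotation gives to that gene alone, out of 18193 genes with such a probe set. Where a gene had several probe sets, the one brightest on average across all 6 arrays stood for it. A filter then kept genes whose mean log2 intensity over the 6 arrays exceeded the median of all probe sets (6.30 log2 units, an intensity of 78.9). It passed 25 of the 32 collagens, and 7 (Col2a1, Col4a3, Col5a3, Col7a1, Col9a2, Col9a3 and Col11a2) stayed under it.

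The FOG-2 R3K5A embryos (called mutants from here on) carry substitutions in FOG-2, the GATA cofactor encoded by Zfpm2. The altered residues lie in the motif through which FOG-2 contacts NuRD, a chromatin remodelling complex. Embryos of both genotypes came from matings of double heterozygous parents, and their strain is given as mixed C57/B6, 129 S6. The labels give neither the zygosity of the mutants, nor the sex, nor whether a sample was 1 heart or several, so p-values measure only the spread between these 6 samples, labelled as biological replicates. Comparing the genotypes asks whether heart collagen transcripts differ when FOG-2 carries these substitutions.

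Collagens are trimers of chains that wind around each other in a triple helix, and the chain family sets what kind of structure is built. Fibrillar collagens form the ropes of the interstitial matrix and of the heart valves, and fibroblasts and cushion mesenchyme are their main makers in the fetal heart. Type IV collagens form the sheet-like networks of basement membranes around myocytes, vessels and epithelia, type VI forms beaded filaments, and the remaining families decorate fibrils, build other networks or span the cell membrane. Chains are hydroxylated and folded in the secretory pathway, trimmed outside the cell, cross-linked by lysyl oxidases and removed by proteases.

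Type IV chains are encoded by head-to-head gene pairs, and they are described below by pair. The stretches between or before the start sites are shown, and whether they bear on the readings was not tested. In the RefSeq annotation of GRCm38.p6 the Col4a4 and Col4a3 starts on chromosome 1 lie 71 bases apart, and the Col4a6 and Col4a5 starts on chromosome X 1342 bases apart. The Col4a1 and Col4a2 transcripts on chromosome 8 start on opposite strands with an overlap of 22 bases. The first sequence is all that lies between the Col4a4 and Col4a3 starts (chr1:82586850-82586920, minus strand), and the others lie upstream of Col4a6 (chrX:141474096-141474326, minus strand) and of Col4a5 (chrX:141475169-141475369, plus strand). Capitals mark a match to the letters bound by GATA factors (AGATAA or TGATAA, and likewise AGATAG or TGATAG, on either strand).
Col4a4 to Col4a3: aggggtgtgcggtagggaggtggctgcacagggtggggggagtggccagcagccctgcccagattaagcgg
Col4a6: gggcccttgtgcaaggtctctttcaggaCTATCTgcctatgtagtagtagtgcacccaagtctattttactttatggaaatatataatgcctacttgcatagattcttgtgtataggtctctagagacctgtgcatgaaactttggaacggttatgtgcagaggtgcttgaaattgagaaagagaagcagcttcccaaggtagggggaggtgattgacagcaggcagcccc
Col4a5: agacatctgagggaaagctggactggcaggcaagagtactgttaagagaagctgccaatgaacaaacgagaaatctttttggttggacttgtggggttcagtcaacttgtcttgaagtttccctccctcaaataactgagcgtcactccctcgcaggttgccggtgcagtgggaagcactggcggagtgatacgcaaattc

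RefSeq promoter windows (250 bases before to 50 after a start) were matched for 25 of the 32 collagens, in 28 windows. Those GATA letters stood in 4 of the 28 windows (Col3a1, Col11a2, Col27a1 and Col4a6), where 29.8% of all 32851 windows held them. A GC box (GGGCGG, either strand) stood in 19 of the 28, against 35.7% of all windows. The CCAAT letters stood in 10 of 28 against 37.4%, and TATAAA in 3 of 28 (Col3a1, Col11a2 and Col13a1) against 13.6%, both on either strand. These matches describe letters in a window and say nothing of binding.

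Median intensities of the 6 arrays ran from 77.4 to 84.1, and over the 11113 genes tested arrays correlated at 0.972 to 0.995. The number of genes called, 196 over all 6 arrays, was 451 without WT replicate 1, 92 without WT replicate 2 and 61 without WT replicate 3. It was 37, 84 and 51 without mutant replicates 1, 2 and 3, so the share of all genes called depended on single arrays. Zfpm2 itself read 10.07 to 10.14 log2 units in WT and 10.52 to 10.59 in mutants, which does not check the labels because the allele changes amino acids. Of 10 cardiomyocyte markers 10 were above the filter, as were 8 of 8 fibroblast markers, while 2 of 10 cartilage markers were. In tissue RNA of this kind, a change in the number of cells of a type and a change in RNA per cell cannot be told apart.

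Collagen transcripts differed little between the genotypes, and where the arrays separated, the mutants were higher. By limma with Benjamini-Hochberg adjustment over all genes, 1 of the 25 collagens above the filter passed at an adjusted p under 0.05, Col4a4, which rose, against 1.76% of all genes tested in either direction, 1.39% higher and 0.369% lower. Fitted without the filter, 0 of 32 passed by limma, with 8 at an unadjusted p under 0.05. At an unadjusted p under 0.05 there were 7 of 25 (28%), all higher in mutants, beside 14.7% of all genes in either direction, 8.40% higher and 6.33% lower. Col11a1 was the one collagen lower at that threshold in any fit run, with array quality weights, without WT replicate 3 and without mutant replicate 3. The 7 were Col1a2, Col4a4, Col4a5, Col4a6, Col12a1, Col13a1 and Col14a1, and the same 7 genes were those whose genotypes did not overlap, beside 21.2% of all genes, 11.5% higher and 9.76% lower. Without Col4a4, the one collagen that passed the filter through the mutants alone, there were 6 of 24. Positive differences made up 17 of 25, beside 47.2% of all genes, and the median difference was 0.08 log2 units against -0.01 over all genes. That median ran from 0.03 without mutant replicate 1 to 0.15 without WT replicate 1.

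**Figure D1:**
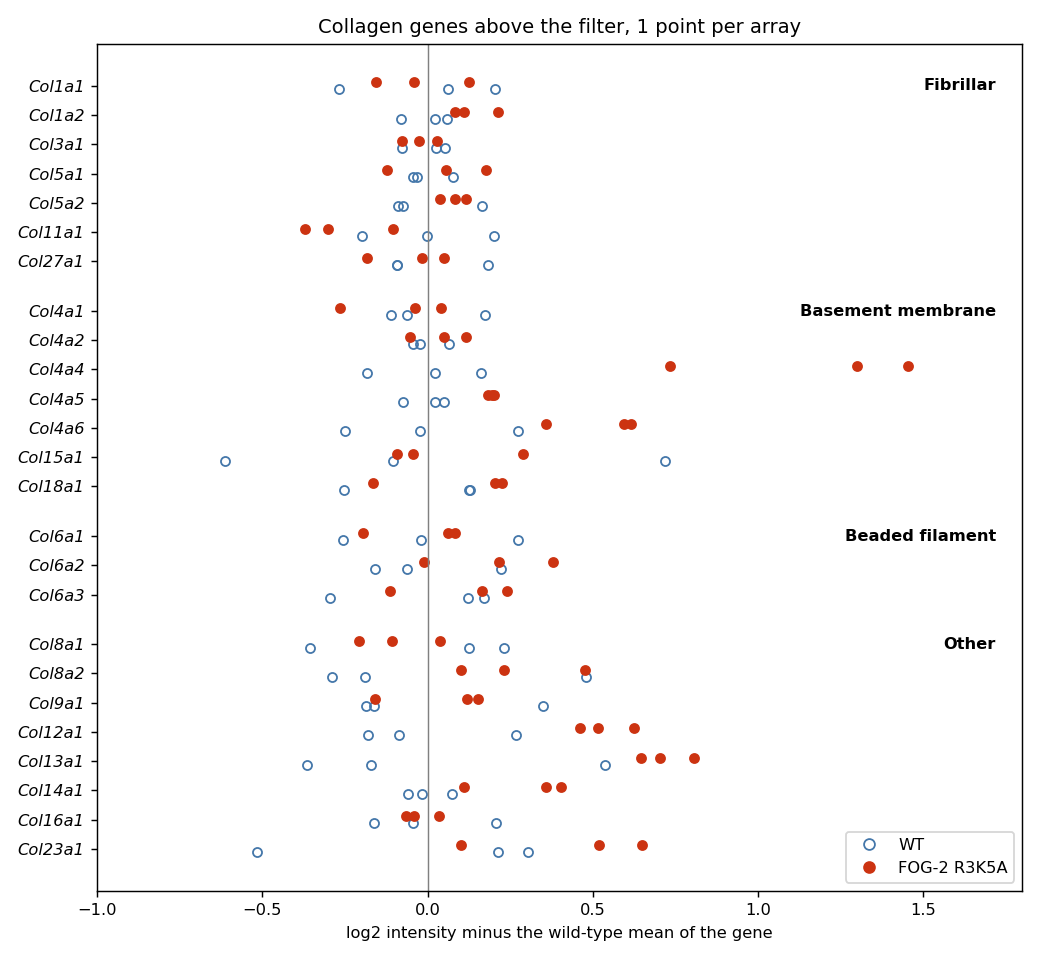
Log2 intensity minus the wild-type mean of the gene (x axis, log2 units) for the 25 collagen genes above the filter, grouped by structure, with an open point per WT array and a filled point per FOG-2 R3K5A array. The mutant points of Col1a2, Col4a4, Col4a5, Col4a6, Col12a1, Col13a1 and Col14a1 all lie to the right of the wild-type points, and those of the other 18 genes mix with them.

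Among the basement membrane collagens the largest difference was that of Col4a4, which was tested only because its mutant readings lifted its mean over the filter. Of 8 genes in this group 7 were above the filter, Col4a4 passed, 6 had positive differences and the median difference was 0.09 log2 units. That median ran from 0.02 without mutant replicate 1 to 0.22 without WT replicate 2, and was 0.24 with the lowest probe set above the filter. Col4a1 and Col4a2 encode the chains of the network found in nearly every basement membrane. Col4a3, Col4a4 and Col4a5 make a network known from kidney, lung and other specialised basement membranes, and Col4a5 also joins with Col4a6.

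Col4a4 read 6.00, 5.86 and 5.65 log2 units in WT replicates 1, 2 and 3 and 7.29, 6.57 and 7.13 in mutant replicates 1, 2 and 3. Every wild-type reading lay under the filter level and every mutant reading above it, so the gene had to differ to be tested, and its p is to be read with that limit. The difference was 1.16 log2 units (SE 0.20, adjusted p = 0.0286 by limma), and the mutant mean lay 1.62-fold above the filter level. Fitted without the filter, the same difference did not pass (adjusted p = 0.0865). With the filter, the call was kept without WT replicate 1 (adjusted p = 0.0265) and without mutant replicate 2 (0.0145). It was lost without WT replicate 2 (0.0737), WT replicate 3 (0.10), mutant replicate 1 (0.148) or mutant replicate 3 (0.124), in fits where the difference stayed at 1.02 to 1.17. A second Col4a4 probe set, under the filter, read 4.77, 5.02 and 5.07 in WT and 6.47, 5.47 and 6.19 in mutants. The third, also under it, went the other way, from 5.58 to 5.36 in the genotype means. So the probe sets of this gene disagreed, and no Col4a4 probe set stood above the filter in wild type.

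Its head-to-head partner Col4a3 was under the filter on all 6 arrays, at 5.11, 4.80 and 4.66 in WT and 5.50, 5.40 and 5.77 in mutants. These genotypes did not overlap, and the means differed by 0.70 log2 units. Fitted without the filter the gene did not pass (adjusted p = 0.243 by limma). The other Col4a3 probe set differed by 0.23.

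For the X-linked pair, Col4a6 read 8.30, 8.60 and 8.07 in WT and 8.92, 8.94 and 8.68 in mutants, a difference of 0.52 (SE 0.14, 1.44-fold, adjusted p = 0.118 by limma). Its second probe set, also above the filter, read 8.25, 7.52 and 7.38 in WT and 8.87, 8.75 and 8.72 in mutants, a difference of 1.06. Both probe sets separated the genotypes. Read from the second one, or from the mean of both, Col4a6 passed (adjusted p = 0.0409 and 0.0359).

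Col4a5 readings were 11.70, 11.72 and 11.60 in WT and 11.86, 11.87 and 11.87 in mutants. The SD of the mutant arrays was 0.01 log2 units (n = 3), and the difference of 0.19 (SE 0.05, 1.14-fold) did not pass (adjusted p = 0.118 by limma). Its second probe set had a difference of 0.25, with overlapping genotypes. Since sex is not in the labels and both Col4a5 and Col4a6 are X-linked, Xist was read on the same arrays. It was at 11.58 to 12.12 in WT and 10.82 to 11.90 in mutants. The Y-linked Eif2s3y read 8.77 to 9.69 in WT and 8.95 to 10.30 in mutants. Both transcripts were thus above the filter level on every array, and mutant replicate 3 had the lowest Xist and the highest Eif2s3y. Whether samples held hearts of both sexes was not tested. With the Xist level as a covariate, added after seeing the data, the differences were 0.18 for Col4a5 and 0.60 for Col4a6. Col4a4, which is not X-linked, had 1.08 in that fit and was no longer called (adjusted p = 0.158).

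The broadly expressed pair had smaller differences. Col4a1 read 12.35, 12.59 and 12.30 in WT and 12.46, 12.38 and 12.15 in mutants, and Col4a2 read 11.78, 11.89 and 11.80 in WT and 11.94, 11.88 and 11.77 in mutants. The genotypes overlapped for both. Col4a1 differed by -0.09 (95% interval -0.30 to 0.12) and Col4a2 by 0.04 (-0.10 to 0.17), so by these intervals a change as large as the 0.52 of Col4a6 was outside the range for either. Whether the minor chains differed from the major ones was not tested.

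**Figure D2:**
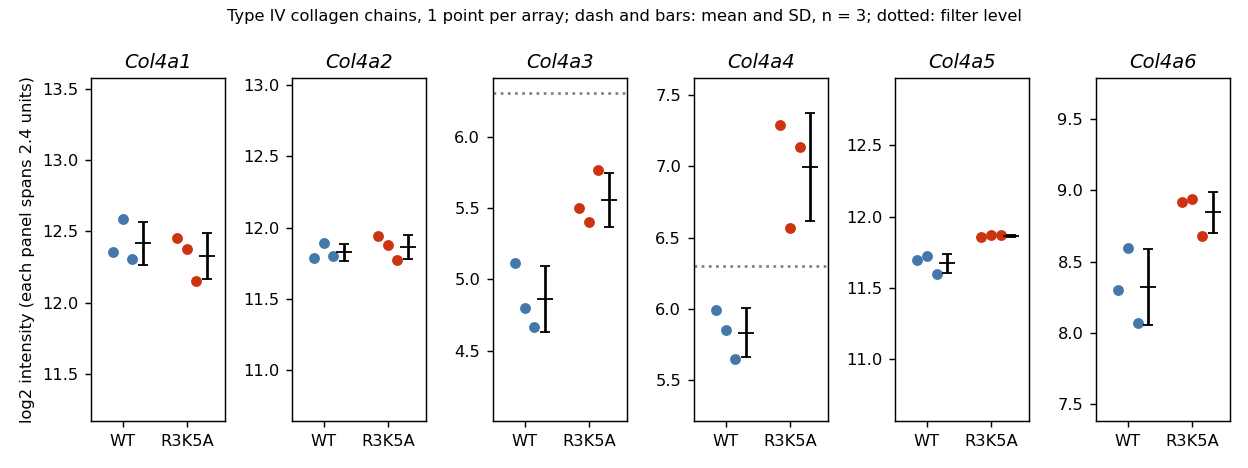
Log2 intensity (y axis, each panel spans the same number of log2 units) of the 6 type IV collagen genes in WT and FOG-2 R3K5A hearts, 1 point per array, with the mean and SD of 3 arrays beside them and the filter level dotted where it falls in the panel. Col4a3, Col4a4, Col4a5 and Col4a6 have their mutant points above all wild-type points, and Col4a1 and Col4a2 do not.

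Col15a1 and Col18a1 encode multiplexins, collagens of the basement membrane zone that carry endostatin-like ends. Col18a1 read 10.95, 10.95 and 10.57 in WT and 11.05, 11.03 and 10.66 in mutants, with WT replicate 3 and mutant replicate 3 low in their groups, and its difference of 0.09 (95% interval -0.21 to 0.38) did not pass. Its second probe set had 0.24. Col15a1 varied most within genotypes of the collagens above the filter, from 7.76 to 9.10 in WT, and its 95% interval of -0.59 to 0.69 leaves the direction undetermined.

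Fibrillar collagens lay close to the same level in both genotypes. Of 10 genes 7 were above the filter, 0 passed by limma, 1 had an unadjusted p under 0.05, and the median difference was -0.02, between -0.06 without WT replicate 3 and 0.02 without WT replicate 1. The main chains of the heart's interstitial fibrils are those of Col1a1, Col1a2 and Col3a1. Col1a1 read 11.66, 11.80 and 11.32 in WT and 11.72, 11.55 and 11.44 in mutants. For Col3a1 the readings were 13.05, 13.08 and 12.95 in WT and 13.05, 12.95 and 13.00 in mutants. The genotypes overlapped for both genes, with differences of -0.02 (95% interval -0.29 to 0.24) for Col1a1 and -0.02 (-0.13 to 0.08) for Col3a1.

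Col1a2, whose chain joins with that of Col1a1 in type I collagen, was 12.62, 12.58 and 12.48 in WT and 12.78, 12.68 and 12.65 in mutants. Every mutant array was above every wild-type array, by a difference of 0.14 (SE 0.05, 1.10-fold) that did not pass (adjusted p = 0.276 by limma). Further Col1a2 probe sets had 0.19 and 0.13, with overlapping genotypes, so all 3 had the same sign.

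Type V collagen takes part in starting type I fibrils. Col5a1 read 10.85, 10.84 and 10.96 in WT and 10.94, 10.76 and 11.06 in mutants, and Col5a2 read 11.57, 11.33 and 11.32 in WT and 11.52, 11.49 and 11.45 in mutants. Genotypes overlapped for both, with differences of 0.04 and 0.08. Col5a1 was the only collagen with several probe sets above the filter whose probe sets took opposite signs (0.04, 0.07 and -0.19). Col11a1, a fibril-starting chain best known from cartilage, had the lowest difference of the collagens tested, -0.26 (95% interval -0.55 to 0.04, adjusted p = 0.392 by limma), and -0.14 in its second probe set. Col27a1, another fibrillar chain of cartilage, had -0.05.

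The cartilage chain Col2a1 stayed under the filter, at 5.76, 5.29 and 4.64 in WT and 5.80, 5.90 and 5.74 in mutants. Summed over 10 cartilage markers, intensity ran from 396 to 521 in WT and from 475 to 555 in mutants, and the genotypes overlapped. Of the other chains of cartilage fibrils, Col9a2, Col9a3 and Col11a2 were under the filter, and Col9a1 was above it with a difference of 0.04. Col5a3, under the filter, differed by 0.03. Fitted without the filter, 0 of the 7 collagens under it passed by limma (the lowest adjusted p was 0.243), and 1 of them, Col4a3, had an unadjusted p under 0.05.

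Type VI collagen, a beaded filament that links cells to the interstitial matrix, was above the filter for 3 of 3 genes, with 0 passing by limma or at an unadjusted p under 0.05. Col6a2 read 10.98, 10.88 and 11.26 in WT and 11.25, 11.03 and 11.42 in mutants, a difference of 0.19 (95% interval -0.07 to 0.46), and 0.10 in its other probe set. Col6a1 and Col6a3 differed by -0.02 and 0.10. Mutant replicate 2 was the lowest mutant array for each of the 3 genes. The median of the group, 0.10, turned to -0.05 without WT replicate 1.

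Among the remaining collagens 8 of 11 were above the filter and 0 passed by limma, 3 had an unadjusted p under 0.05, 6 differences were positive, and the median was 0.28 log2 units (0.17 to 0.38 over the fits that left out 1 array, the lowest without WT replicate 3 and the highest without WT replicate 1). Those with an unadjusted p under 0.05 were Col12a1 and Col14a1, whose products are collagens with interrupted helices that bind to the surface of fibrils, and Col13a1, a collagen that spans the cell membrane.

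Col12a1 read 8.09, 7.99 and 8.44 in WT and 8.69, 8.63 and 8.80 in mutants. WT replicate 3 was nearest to the mutants, and the genotypes did not overlap. The difference was 0.53 (SE 0.13, 1.45-fold, adjusted p = 0.0812 by limma), and it passed without WT replicate 3 (0.67, adjusted p = 0.0436) and with each array centred on its median (0.58, adjusted p = 0.0392). A second probe set above the filter had 0.14, and those under it had 0.39 and -0.63.

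Col14a1 readings were 10.18, 10.22 and 10.31 in WT and 10.60, 10.35 and 10.64 in mutants, a difference of 0.29 (SE 0.09, 1.22-fold, adjusted p = 0.170 by limma). Its other probe sets had 0.12 and 0.16, with overlapping genotypes. The gene lies on chromosome 15, as does Zfpm2. Whether DNA carried along with the mutant allele bears on it was not tested.

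Col13a1 read 7.77, 6.87 and 7.07 in WT and 7.94, 8.04 and 7.88 in mutants. WT replicate 1 lay next to the mutants, and the difference of 0.72 (SE 0.21, 1.65-fold) did not pass (adjusted p = 0.148 by limma). Without WT replicate 1 it was 0.99 and passed (adjusted p = 0.00785), in a fit that called 4.06% of all genes. The gene had 1 probe set. Col23a1, also a membrane-spanning collagen, had its lowest reading in WT replicate 3 in each of its 3 probe sets and differences of 0.42, 0.71 and 0.45, none of which passed.

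Col8a1 and Col8a2 encode the short chains of a network collagen of vessel walls and valves, and differed by -0.09 and 0.27. Col16a1, another fibril-associated collagen, had -0.02. Col7a1, the anchoring fibril collagen of skin, was under the filter.

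**Figure D3:**
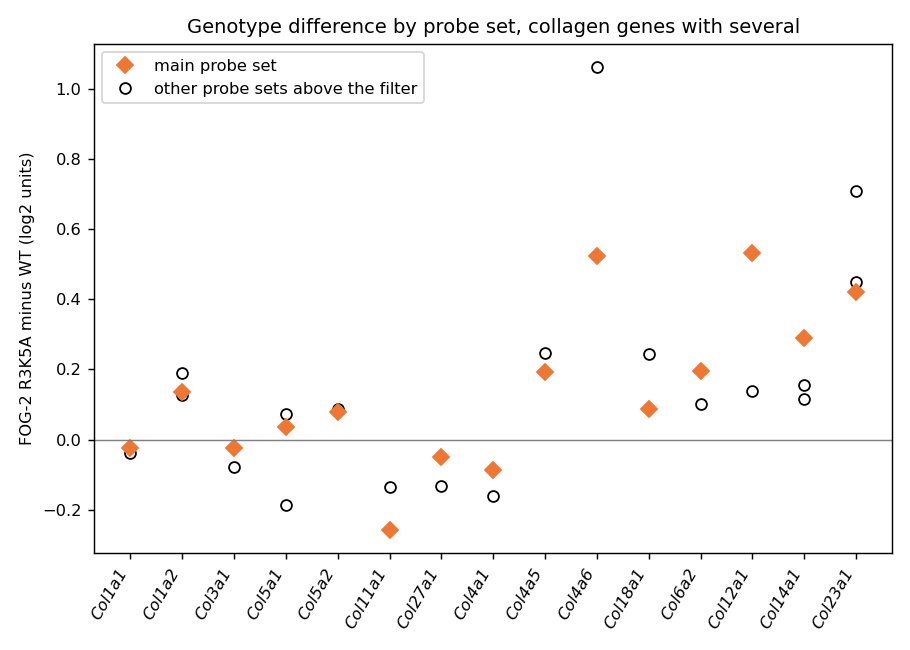
Difference between FOG-2 R3K5A and WT means (y axis, log2 units) for the 15 collagen genes with several probe sets above the filter, with the main probe set as a filled diamond and the others as open circles. In 14 genes all probe sets have 1 sign, Col5a1 is the exception, and the probe sets of Col4a6 and Col12a1 lie farthest apart among those with 1 sign.

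Over all 62 collagen probe sets 44 were above the filter, and in a fit over all 22518 probe sets above it 1 of them passed, that of Col4a4, beside 0.990% of all. Collagens also varied more within genotypes than most genes did. The median within-genotype SD was 0.20 log2 units for the 25 collagens and 0.12 for all genes tested, from 0.05 for Col4a5 to 0.50 for Col15a1. WT replicate 3 was the lowest of the 6 arrays for 10 of the 25 collagens and mutant replicate 1 for 0. The highest array was spread more evenly, with WT replicate 2 highest for 7 and mutant replicates 1 and 3 for 5 each.

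Of 12 further collagen genes on a separate list, 10 had a probe set of their own and 1 was above the filter. It was Col26a1, at 7.28 ± 0.63 (SD, n = 3) in WT and 6.94 ± 0.26 in mutants, which did not pass (adjusted p = 0.603 by limma). Col6a6 and Col28a1 were not analysed here.

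Genes that make, assemble and remove collagen were counted from 6 lists. Of 69 genes 50 were above the filter, 3 rose by limma (P3h2, Bgn and Timp1) and 0 fell, 22 had an unadjusted p under 0.05 and were higher and 2 were lower. Of all genes tested, 1.39% rose and 0.369% fell, 8.40% were higher and 6.33% lower at an unadjusted p under 0.05, and 47.2% had positive differences. The median difference was 0.16 log2 units, against -0.01 for all genes tested.

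Among 21 genes of chain hydroxylation, folding and export 1 passed and 19 had positive differences. P3h2, a prolyl 3-hydroxylase known to act on type IV collagen, read 7.58, 7.16 and 7.27 in WT and 8.59, 8.60 and 8.36 in mutants. Every mutant array was above every wild-type array, and the gene rose by 1.18 (SE 0.13, 2.26-fold, adjusted p = 0.00448 by limma). It was called in each fit without 1 array (adjusted p = 0.00328 to 0.0306) and with the Xist covariate (0.0388), and it had 1 probe set. Its relative P3h1, which acts on fibrillar collagen, differed by 0.32, the prolyl 4-hydroxylase subunit P4ha2 by 0.36, the lysyl hydroxylase Plod2 by 0.30 and the collagen galactosyltransferase Colgalt1 by 0.28. None of these passed. The genotypes did not overlap for 6 of the 21 genes in the list, these 4 among them and all higher in mutants. They did not overlap for 21.2% of all genes tested, 11.5% higher and 9.76% lower. Serpinh1, the collagen chaperone HSP47, had 0.08 (95% interval -0.06 to 0.21).

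For removal of propeptides 4 of 8 genes with a probe set were above the filter and 0 passed by limma, with an unadjusted p under 0.05 for Adamts3 (0.33), Pcolce (0.27) and Mep1a (-0.41). Tll1, a tolloid protease known for its part in septation of the heart, had a mean just under the filter, at 5.94, 5.81 and 5.74 in WT and 6.62, 6.53 and 6.84 in mutants, and was not tested. Of 4 cross-linking genes 0 passed by limma and 1 had an unadjusted p under 0.05, Lox at 0.33. Loxl1 had 0.07, Loxl3 -0.18 and Pxdn, the peroxidasin that cross-links type IV collagen, -0.09. Every mutant array was below every wild-type array for Pxdn, which did not pass.

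Fibril partners, proteins that coat or bind collagen fibrils, had positive differences in 9 of 9 genes above the filter, of which 1 passed and 7 had an unadjusted p under 0.05. The proteoglycan Bgn read 11.44, 11.49 and 11.39 in WT and 11.79, 11.72 and 11.83 in mutants. It rose by 0.34 (SE 0.05, 1.27-fold, adjusted p = 0.0194 by limma), and its other probe sets had 0.33 and 0.24. Among the related small proteoglycans the differences were 0.24 for Dcn, 0.31 for Lum and 0.69 for Fmod, none of which passed. The Bgn call was lost without WT replicate 3 (adjusted p = 0.0830) or any mutant replicate (0.0551 to 0.127), with no intensity trend (0.0923), with the mean over probe sets (0.0907) or the lowest probe set above the filter (0.318), and with the Xist covariate (0.105).

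In the turnover list 1 of 8 genes above the filter passed. Timp1, an inhibitor of matrix metalloproteinases, read 7.99 to 8.16 in WT and 8.78, 8.75 and 8.54 in mutants. The groups did not overlap, and the gene rose by 0.64 (SE 0.10, 1.56-fold, adjusted p = 0.0217 by limma). That call was lost without WT replicate 2 (0.0543), WT replicate 3 (0.0866), mutant replicate 1 (0.151) or mutant replicate 2 (0.104), with no filter (0.0541) and with the Xist covariate (0.0841). Bgn and Timp1 are both X-linked. Of the collagen-degrading enzymes, Mmp2 had 0.29, Mmp14 0.17 and the cysteine protease Ctsk 0.38, and the inhibitors Timp2 and Reck had 0.26 and 0.37, none of which passed. The inhibitor Timp3 and the collagen uptake receptor Mrc2 had -0.11 and -0.08, with overlapping genotypes. Collagen receptors held 4 genes above the filter and 0 that passed by limma. Their unadjusted p was under 0.05 for the integrin chain Itga1 (0.31) and for the receptor kinase Ddr1 (-0.16), with no overlap of the genotypes for either.

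**Figure D4:**
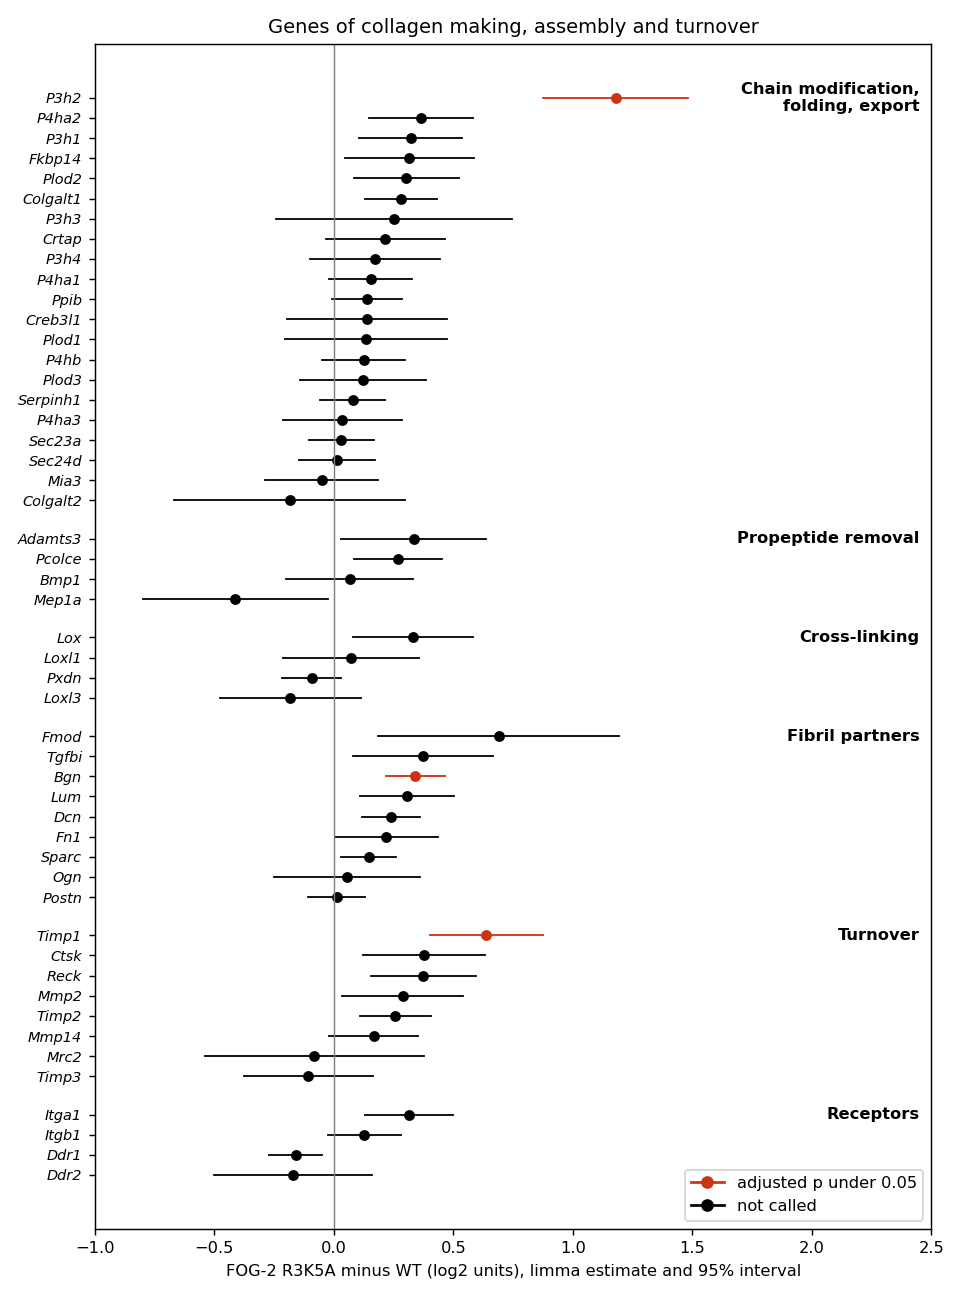
Difference between FOG-2 R3K5A and WT (x axis, log2 units) with its 95% interval by limma for the 50 genes of collagen making, assembly, turnover and binding that were above the filter, ordered within each list. P3h2, Bgn and Timp1 are the 3 genes that passed, and 41 of the 50 estimates lie to the right of 0.

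Markers of other cells moved on the same arrays, where 1.39% of all genes tested rose and 0.369% fell. Of 8 epicardial markers 6 rose, and their summed intensity was 2887 to 2985 in WT and 4740 to 5449 in mutants, with Krt18 2.91-fold and Krt8 2.67-fold higher. Muc16, 1 of the 6, read 5.81 to 5.93 in WT, under the filter level, and 6.48 to 7.13 in mutants. It was tested only because its mutant readings lifted its mean over the filter, so its call has the same limit as that of Col4a4. Wt1, the epicardial transcription factor of that list, differed by -0.06 with overlapping genotypes, and Upk1b by 0.59 without passing. The lung and airway list had 3 of 8 genes above the filter, and its sum was 230.4 to 343 in WT and 716, 231 and 3510.3 in mutant replicates 1, 2 and 3. In that list Scgb3a2 read 9.03, 4.87 and 11.36 in mutants and at most 5.40 in WT. Sftpc read 6.17, 5.80 and 9.43 in mutants and at most 6.53 in WT, where its mean was 6.15. The mean of Scgb3a2 was thus above the filter only through mutant replicates 1 and 3, and that of Sftpc through mutant replicate 3. Sftpb, also above the filter, differed by -0.14 with overlapping genotypes. Nkx2-1, a defining lung factor, was at 0 in WT replicate 1 and mutant replicate 2 and under the filter elsewhere. Mutant replicate 2, with the lowest lung sum of the mutants, also had the lowest Col4a4 reading of the mutants, 6.57, which was still above the 6.00 of the highest wild type. Col4a3, Col4a5, Col4a6, Col12a1 and Col13a1 were likewise higher in that array than in any wild type. For these genes and Col4a4 that was fixed by the genotypes not overlapping, so it tests nothing about lung tissue. The part of lung tissue in the collagen readings was not tested.

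The 8 fibroblast markers summed to 17822 to 18943 in WT and 18598 to 19909.7 in mutants, which overlapped, and 0 of them passed by limma, with 2 (Dcn and Lum) at an unadjusted p under 0.05. Dcn, Lum and Postn are also on the list of fibril partners. Differences were positive for 4 of the 8 and negative for 4, Tcf21 (-0.09), Pdgfra (-0.02), Dpt (-0.01) and Tbx18 (-0.11). Endothelial markers summed to 10142 to 11091 in WT and 11259 to 11575 in mutants, and 1 of 8, Vwf, rose. Differences were positive for 7 of the 8, with Cdh5 at 0.01. Kdr went the other way (-0.10), with every mutant array below every wild-type array, and did not pass. Skeletal muscle markers, 3 of 8 above the filter, had a lower sum in mutants (1509 to 1795 against 2162 to 2255). Tnni2 (-1.04) and Casq1 (-0.41) fell (adjusted p = 0.0217 and 0.0467 by limma), and Mylpf had -0.29 without passing. Under the filter, Actn3 and Myh3 had negative differences, and Tnnt3, Myog and Myod1 had positive ones. Cardiomyocyte markers summed to 90568 to 93004 in WT and 95834 to 96804 in mutants, with 0 of 10 passing by limma and 3 at an unadjusted p under 0.05. Over all genes tested, 1.39% rose and 0.369% fell by limma, and 8.40% were higher and 6.33% lower at an unadjusted p under 0.05. The part of any of these cell types in the collagen differences was not tested.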

How the data were processed

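Total RNA (3 µg per sample) was labelled with biotin and hybridised to 1-colour Affymetrix mouse arrays, per the labels' protocols. Intensity values were deposited by the authors on a linear scale, and their array medians lay within 0.12 log2 units, so no further scaling was applied. How probes were summarised and scaled is not given in the sources used here. Intensities were floored at 1 and log2-transformed. Of 45101 probe sets, 64 controls were set aside, and the platform annotation gave 1 symbol to 34945, several to 932 and none to 9160. Only the first kind was used. No pair of arrays shared more than 46 equal readings.

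The genotypes were compared by limma 3.58.1 in R 4.3.3 (lmFit, eBayes with an intensity trend, two-sided) over 11113 genes, adjusted by the Benjamini-Hochberg method with calls made below 0.05. Wild-type means were subtracted from mutant means. The fit was tested on simulated arrays. The members, the pathway and marker lists and the tests were chosen with earlier results of these data known. Values in every array are given for the 10 members with the highest means and for those with an unadjusted p under 0.05, and pathway genes are named where they passed or had the smallest p, with others chosen after their values were seen. Replicate numbers were not used to pair the samples in the main fit. Sequences and gene positions are RefSeq's (GRCm38.p6). Figures were drawn with matplotlib 3.10.9. The number of arrays limits the precision.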

Additional observations from a re-analysis of the deposited data

How the results depend on the processing

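Of 25 collagens, 1 was called as reported. The count was 2 with median centring, 2 with the lowest probe set above the filter, 4 with array quality weights, 3 with the replicate number as a block, 2 at an adjusted p under 0.10, 0 without the filter (8 at an unadjusted p under 0.05 by limma), 0 with the Xist covariate added later (7 at an unadjusted p under 0.05 by limma) and 0 to 2 without single arrays. Same-numbered samples deviated together at -0.06, 0.13 and 0.41, and not every sample correlated best with its own number. With 3 samples per genotype this cannot show whether the numbers pair the samples. The replicate block added Col4a6 and Col12a1. Pathway calls were 3 as reported, 9 with array quality weights, 6 at an adjusted p under 0.10, 1 with the Xist covariate and 1 to 6 without single arrays. The median difference of the collagens ran from 0.028 to 0.149 without single arrays. Differences near 0 changed sign. Col1a1 was 0.0169 with median centring, 0.0925 with quality weights, 0.0235 with the Xist covariate and -0.159 to 0.0777 without single arrays. Col3a1 was 0.0169 with median centring and -0.0632 to 0.00097 without single arrays. Col5a1 was -0.0262 with the mean over probe sets, -0.187 with the lowest probe set, -0.0254 with quality weights, -0.0156 with the Xist covariate and -0.0336 to 0.117 without single arrays. Col4a1 was 0.0102 with quality weights, 0.0164 with the Xist covariate and -0.152 to 0.00135 without single arrays. Without single arrays Col4a2 was -0.00082 to 0.083 and Col18a1 -0.0389 to 0.214. The cause was not tested. Col4a4, Col4a5, Col4a6, Col12a1, Col13a1, Col14a1 and Col1a2 kept their direction in every alternative run that gave them a value (Col4a4 and Col12a1 had none with the mean over probe sets). Signal over background is not known beyond the filter, and differences in genes under it may not be detectable here.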
